A study of Mus musculus with 8 samples.

Results

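Hbegf encodes heparin-binding EGF-like growth factor, a ligand of the EGF receptor family, and it was examined here with the ligands Tgfa, Egf, Btc, Nrg1 and Nrg3 and the receptors Egfr, Erbb2, Erbb3 and Erbb4. Members were all non-control probes whose gene name in the scanner files was one of these 10 genes, which gave 13 probes on 49 spots, of 39429 probes on 43020 spots in all (30175 gene names). Hbegf was chosen by its normalized log2 genotype difference in these same arrays, so that difference is described without a test. The other 9 genes are its fellow ligands and the family's receptors.

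Ligands of this family are made as membrane-anchored precursors that proteases release from the cell surface. They bind receptor tyrosine kinases that pair with one another, and the paired receptors switch on the MAP kinase and PI3 kinase cascades. In the brain, EGFR ligands act on glia and progenitors, and neuregulins acting through ERBB4 shape inhibitory interneurons and their synapses. ERBB2 binds no known ligand by itself, and ERBB3 has a weak kinase domain, so both act mainly through their partners.

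The samples were striata of adult female C57Bl/6j mice, 4 wildtype and 4 Brd2+/- heterozygous, the latter carrying 1 gene-trap insertion in Brd2, which encodes a chromatin-binding BET protein. Both genotypes came from heterozygous matings at the 7th backcross generation, with a background put at 99% C57Bl/6J on average. The trap is present in the whole animal, the tissue label names the prefrontal cortex beside the striatum, and the labels do not say whether each sample came from a single mouse. RNA was hybridised to 4 2-colour Agilent arrays with 2 samples of one genotype per array, replicates 1 and 3 in Cy3 and replicates 2 and 4 in Cy5.

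Between 37.7% and 47.6% of spots were well above background in the Cy3 samples and between 65.9% and 75.5% in the Cy5 samples, by the scanner software's own call. Brd2 was measured first as a check of the labels. With dye effects removed, its bright probe read 12.97, 13.11, 12.52 and 12.82 in wildtype replicates 1 to 4 on the normalized log2 scale and 11.79, 11.96, 12.44 and 11.83 in heterozygous replicates 1 to 4. The groups did not overlap (exact two-sided permutation p = 0.0286, the smallest that 4 against 4 allows). That permutation moved samples singly after dye removal, so its p does not account for the 2 samples of one genotype sharing each array. The library labelled heterozygous replicate 3 lay beside the lowest wildtype sample, so results are also given without it. The difference was -0.85 (SE 0.19, limma adjusted p = 0.391), or -1.03 without that library. A dim second probe, well above background in 5 samples, differed by 0.29 (SE 0.17, adjusted p = 0.645 in limma), and where the probes lie relative to the trap is not known here. Striatal projection neuron markers were present, with 14 of 14 tested and 10 well above background in all 8 samples. In limma over all 25306 probes kept by the background filter, 1 probe passed an adjusted p of 0.05 (0.00395%), a probe of Btbd9 (A_55_P2040539), named here after its value was seen. An unadjusted p under 0.05 was found for 8.89% of probes.

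A probe was kept for testing if it was well above background in at least 4 of the 8 samples. This held for 9 of the 13 member probes, from 7 of the 10 genes. Hbegf, Nrg1, Erbb2 and the brighter Erbb4 probe (A_55_P2119892) were well above background in all 8 samples. Erbb2 met the call narrowly in Cy3, with 5 of 9 unflagged spots in wildtype replicate 1 and 4 of 8 in heterozygous replicate 3. The Tgfa probe and the Egfr probe A_52_P106259 were so in 7, missing in each case the library labelled heterozygous replicate 3. Nrg3 and both other Egfr probes were well above background in the 4 Cy5 samples and in no Cy3 sample. Egf (3 samples), Erbb3 (2), Btc and the dim Erbb4 probe (no sample) were not kept.

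The first 30 bases of the 60-base probes are shown for Egfr, whose probes gave different values, the bright Erbb4 probe, Nrg3 and Tgfa. They fix which stretch of each transcript was read. The Hbegf sequence is not shown. Positions are mm9 coordinates of the array files, and each sequence is written 5′ to 3′ as the array files give it.
Egfr A_52_P106259: gttgcaagccactctaactgtagcaatgaa
Egfr A_55_P1956862: gaagtgtggccatctgggtacgttcaatgg
Egfr A_55_P1956863: tctggaagtatgcagatgccaataatgtct
Erbb4 A_55_P2119892: cccagctgaacaatttgaaaactgttctgc
Nrg3 A_51_P177071: caagtgactggaaatgtaggaatctgtgca
Tgfa A_51_P415126: tggacatacacagaaccaaaccatgagtta
The first Egfr probe lies at chr11:16813815-16813874 on the plus strand and starts at base 5869 of a transcript described as variant 1. The probe A_55_P1956862 lies at chr11:16787172-16787231 and starts at base 2188 of variant 2, and A_55_P1956863 lies at chr11:16783556-16783615 and starts at base 2099 of the same variant. The array files also assign A_55_P1956863 to other transcripts, not listed for A_55_P1956862, so it may not be specific to variant 2. No pair of Egfr probes shares a run of more than 7 bases, so they read separate stretches. The bright Erbb4 probe lies on the minus strand at chr1:68078805-68078864, from base 11932 of its transcript. Nrg3 is read at chr14:39183666-39183725 on the minus strand, from base 2423 of its transcript, and Tgfa at chr6:86224838-86224897 on the plus strand, from base 3623. No annotation of this build was used, so exons and untranslated regions are not assigned.

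Hbegf, the ligand that binds EGFR and ERBB4 and also serves as the diphtheria toxin receptor in humans, was lower in heterozygous striatum. Its single spot, at chr18:36664738-36664797 on the minus strand and from base 2158 of its transcript, read 10.86 and 10.98 in the Cy3 wildtype samples (replicates 1 and 3) and 10.40 and 10.49 in the Cy3 heterozygous samples. In Cy5 it read 10.65 and 10.46 in wildtype replicates 2 and 4 and 9.92 and 9.87 in heterozygous replicates 2 and 4. Within each dye both heterozygous samples lay below both wildtype samples. Across dyes the ranges met, because heterozygous replicate 3 in Cy3 (10.49) lay above wildtype replicate 4 in Cy5 (10.46). With the dye effect removed, wildtype averaged 10.74 ± 0.11 and heterozygous 10.17 ± 0.07 (SD, n = 4), a log2 difference of -0.57, or 67.5% of the wildtype level. The difference was -0.47 in Cy3 and -0.66 in Cy5. Without the library labelled heterozygous replicate 3 it was -0.61. In bulk tissue, fewer cells of a type and less RNA per cell cannot be told apart.

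The raw brightness of the Hbegf spot differed between genotypes less plainly than the normalized value. It was 1297 and 1953 in the Cy3 wildtype samples against 1225 and 691 in the Cy3 heterozygous samples. In Cy5 it was 1687 and 1718 in wildtype against 2038 and 1677 in heterozygous samples, so the raw Cy5 values overlapped. The median spot of the same Cy5 samples was brighter in heterozygous (359 and 321) than in wildtype samples (212 and 235). The Cy5 decrease of Hbegf is therefore relative to the other spots of its sample, as is every normalized value here.

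**Figure D1:**
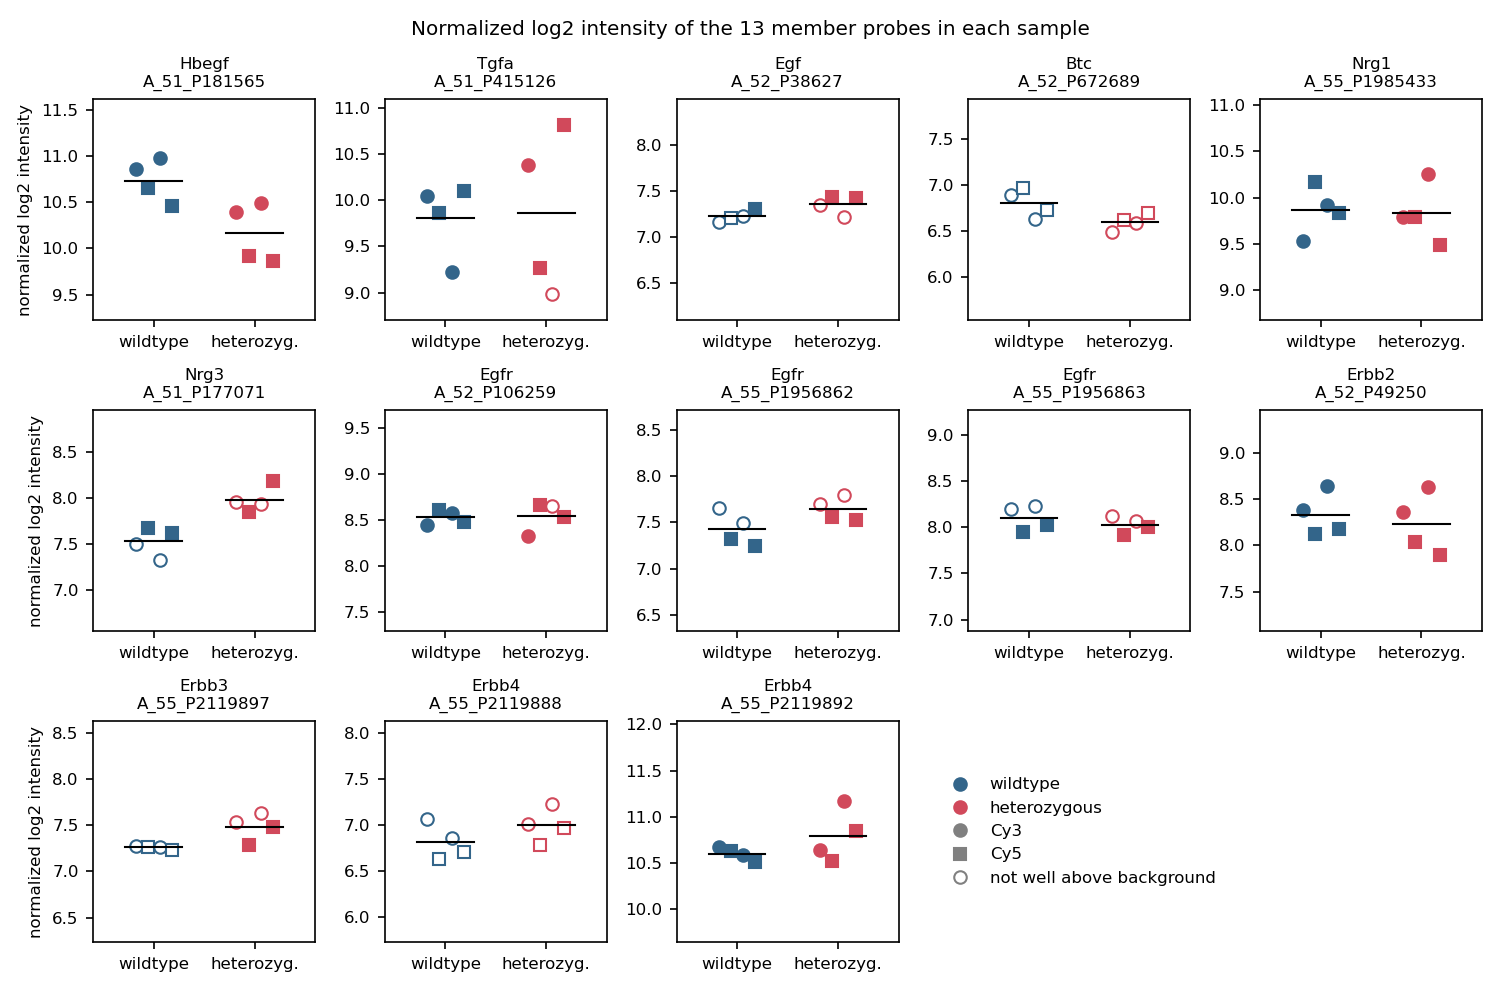
Normalized log2 intensity (vertical axes, all of equal span) of the 13 member probes in each wildtype and heterozygous sample, with circles for Cy3, squares for Cy5, open symbols where the probe was not well above background, and bars at group means. Hbegf lies lower in heterozygous samples of either dye, at 67.5% of wildtype on average, Nrg3 lies higher, and Tgfa spreads most within a genotype.

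Tgfa, the EGFR ligand TGF-alpha, had close genotype means but varied widely within each genotype. It was read on 10 spots per array, of which 8 to 10 per sample carried no outlier flag. Its normalized log2 value was 10.05, 9.87, 9.23 and 10.10 in wildtype replicates 1 to 4 and 10.38, 9.27, 8.98 and 10.81 in heterozygous replicates 1 to 4. Wildtype samples lay inside the heterozygous range. The difference was 0.05 (SE 0.41, 95% interval of the fold 0.541 to 1.99, limma adjusted p = 0.979). The residual SD of 0.71 exceeded that of 97.4% of the probes tested.

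The wide spread of Tgfa was not seen among its replicate spots. The mean raw intensity over unflagged spots was 321 (range 301 to 340) in heterozygous replicate 3, read in Cy3, and 3219 (2166 to 3938) in heterozygous replicate 4, read in Cy5 on the same array. Raw scales differ between the dyes, and relative to the mean of their dye these samples stood at -0.68 and 0.80 on the log2 scale. In wildtype replicates 1 to 4 the mean raw intensity was 818, 936, 650 and 1274, and in heterozygous replicates 1 and 2 it was 1237 and 1269. In heterozygous replicate 3, 0 of 9 unflagged spots were well above background, and negative controls had a median of 244. Between spots of one sample the SD of normalized log2 values was 0.12 to 0.27. The difference changed sign when single samples were left out, from -0.35 without heterozygous replicate 4 to 0.37 without the library labelled heterozygous replicate 3.

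Marker levels of projection neurons, the main cells of the striatum, stood at their lowest in heterozygous replicates 2 and 3, the samples with the lowest Tgfa. Relative to the mean of the 4 samples of each dye, the 14 projection neuron markers averaged -0.50 and -0.84 in heterozygous replicates 2 and 3, where Tgfa was -0.74 and -0.68. They averaged 0.30 and 0.12 in heterozygous replicates 1 and 4, where Tgfa was 0.72 and 0.80. In wildtype replicates 1 to 4 the markers averaged 0.38, 0.13, 0.20 and 0.29, and Tgfa was 0.39, -0.15, -0.43 and 0.09. Wildtype replicate 3 thus had low Tgfa without low markers. The part of cell makeup in these values was not tested.

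**Figure D2:**
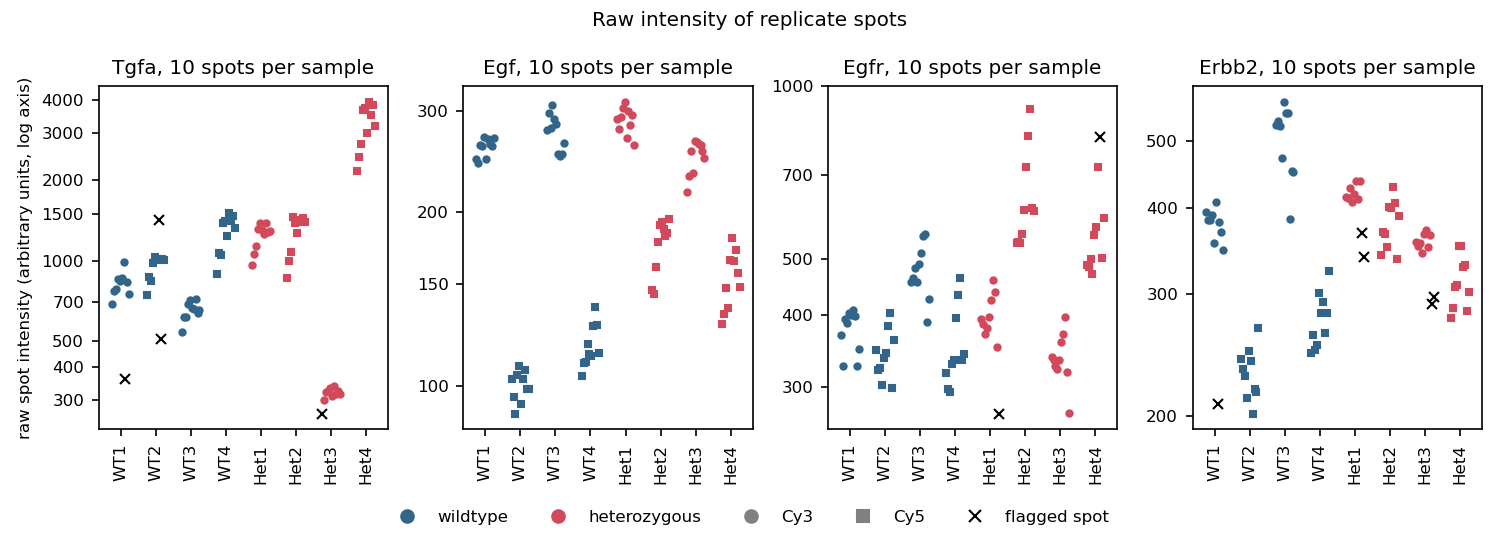
Raw intensity (log axes, arbitrary units) of every spot of the probes printed 10 times per array, for each wildtype (WT) and heterozygous (Het) sample, with flagged spots as crosses. Spots of Tgfa cluster by sample, with means of 321 in heterozygous replicate 3 (Cy3, not well above background) and 3219 in heterozygous replicate 4 (Cy5). Raw scales differ between the dyes.

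Egf, the founding ligand of the family, was near background in striatum. Its probe (A_52_P38627, 10 spots) had mean raw intensities of 250 to 289 in the Cy3 samples, where negative controls had medians of 244 to 261. In Cy5, where those controls had medians of 63.3 to 66.6, it read 100.1 and 117 in wildtype replicates 2 and 4 and 176 and 153 in heterozygous replicates 2 and 4. The median spot was also brighter in these heterozygous samples (359 and 321) than in the wildtype ones (212 and 235). All 10 spots were well above background in both heterozygous Cy5 samples and in wildtype replicate 4, and none in wildtype replicate 2 or in any Cy3 sample. Normalized log2 values ranged from 7.16 to 7.31 in wildtype and from 7.22 to 7.43 in heterozygous samples, so the groups overlapped. Betacellulin (Btc, A_52_P672689), a ligand of EGFR and ERBB4, was not well above background in any sample, at raw intensities of 218 to 237 in Cy3 and 71.9 to 80.8 in Cy5.

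Nrg3, a neuregulin that binds ERBB4, was the member other than Hbegf with the largest difference among the probes tested. It read 7.50, 7.67, 7.32 and 7.62 in wildtype replicates 1 to 4 and 7.95, 7.84, 7.93 and 8.18 in heterozygous replicates 1 to 4. All 4 heterozygous samples lay above all 4 wildtype samples. The difference was 0.45 (SE 0.11), a fold of 1.36 (95% interval 1.14 to 1.64), and it missed the threshold (limma adjusted p = 0.413, unadjusted p = 0.00421). With the scanner's processed signals it was 0.94 (SE 0.28, adjusted p = 0.746 in limma). It was 0.53 in Cy3, where no sample of either genotype was well above background, and 0.37 in Cy5, where all 4 were. Raw Cy5 intensities were 151 and 156 in wildtype replicates 2 and 4 against 293 and 359 in heterozygous replicates 2 and 4. In Cy3, where the raw values overlapped, they were 274 and 276 in wildtype against 353 and 274 in heterozygous replicates 1 and 3. The median spot was also brighter in heterozygous replicates 2 and 4 (359 and 321) than in wildtype replicates 2 and 4 (212 and 235). Without the library labelled heterozygous replicate 3 the difference was 0.44.

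The 10 cortical excitatory neuron markers, 4 of them well above background in all 8 samples, all had positive differences (median 1.03), with per-sample levels of -0.79 to 0.06 in wildtype and -0.05 to 1.16 in heterozygous samples. The 9 interneuron markers tested, 7 of them above background throughout, were divided, with 4 negative differences and a median of 0.11. Their mean levels were -0.46 to -0.07 in wildtype and -0.04 to 0.41 in heterozygous samples. Their part in the Nrg3 difference was not tested.

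Nrg1, the neuregulin with the widest range of known isoforms, was measured by 1 probe (A_55_P1985433, chr8:32928500-32928559, minus strand), so other isoforms may not be read. It measured 9.52, 10.17, 9.92 and 9.83 in wildtype replicates 1 to 4 and 9.79, 9.79, 10.26 and 9.48 in heterozygous replicates 1 to 4. The groups overlapped fully, and the difference was -0.03 (SE 0.20, fold interval 0.712 to 1.34, adjusted p = 0.971 in limma). The dyes went opposite ways, at 0.30 in Cy3 and -0.37 in Cy5. Without the library labelled heterozygous replicate 3 the difference was -0.21.

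Egfr, the receptor of HB-EGF, TGF-alpha, EGF and betacellulin, gave different values at its 3 probes. The probe of variant 1, printed 10 times, averaged 8.53 ± 0.08 in wildtype striatum (SD, n = 4) and 8.54 ± 0.15 in Brd2+/- striatum (SD, n = 4). These means differed by 0.01 (SE 0.11). The 95% interval of its fold ran from 0.844 to 1.21 (limma adjusted p = 0.982), and the difference was -0.047 without the library labelled heterozygous replicate 3. The 2 probes assigned to variant 2 were on 1 spot each and below the well-above-background call in Cy3. Their genotype differences were 0.22 (SE 0.09, adjusted p = 0.562 in limma) at A_55_P1956862 and -0.07 (SE 0.09, limma adjusted p = 0.813) at A_55_P1956863. The latter probe is also assigned to other transcripts.

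At A_55_P1956862 the values were 7.66, 7.32, 7.49 and 7.25 in wildtype replicates 1 to 4 and 7.70, 7.56, 7.79 and 7.53 in heterozygous replicates 1 to 4. With the dye effect removed the groups did not overlap, at 7.37 to 7.54 in wildtype and 7.58 to 7.68 in heterozygous samples. At A_55_P1956863 they overlapped, at 8.04 to 8.14 and 7.97 to 8.09. The difference between these probes was not tested. Replicate spots of the variant 1 probe spread as widely as the samples did, with SDs of 0.12 to 0.34 within a sample.

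Erbb2, the receptor without a known ligand of its own, was measured on 10 spots of A_52_P49250 at chr11:98298103-98298162. It averaged 8.33 ± 0.12 in wildtype striatum (SD, n = 4) and 8.23 ± 0.13 in Brd2+/- striatum (SD, n = 4). The means differed by -0.09 (SE 0.12, fold interval 0.779 to 1.13, limma adjusted p = 0.811). In Cy3 the difference was -0.01 and in Cy5 -0.18, and it was -0.17 without the library labelled heterozygous replicate 3. Samples of the genotypes overlapped.

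Erbb3, a neuregulin receptor of the oligodendrocyte lineage, was at the edge of detection. Its probe (A_55_P2119897, chr10:128006424-128006483) was well above background in heterozygous replicates 2 and 4 and in no wildtype sample. Over all spots this call held for 74.7% and 75.5% in those samples, against 65.9% and 68.9% in wildtype replicates 2 and 4. Values of 7.28, 7.27, 7.27 and 7.23 in wildtype replicates 1 to 4 stood below all of those in heterozygous replicates 1 to 4, which were 7.54, 7.28, 7.63 and 7.49. The smallest gap was 7.28 in wildtype replicate 1 against 7.28 in heterozygous replicate 2, which agree to 2 decimals. Against the lowest signals called well above background in the wildtype samples, the heterozygous mean of 7.48 lay below the bound of 7.59, so no fold is given. Oligodendrocyte markers, 9 of 10 well above background in all samples, were divided, with 3 negative differences and a median of 0.10. Their levels relative to the dye mean were -0.09, 0.06, 0.36 and -0.12 in heterozygous replicates 1 to 4. Erbb3 stood at 0.11, -0.03, 0.20 and 0.17 there. In wildtype replicates 1 to 4 the markers were -0.17, -0.0004, -0.11 and 0.07, and Erbb3 was -0.15, -0.05, -0.16 and -0.09. Both were highest in the library labelled heterozygous replicate 3, but they had opposite signs in heterozygous replicates 1, 2 and 4 and in wildtype replicate 4. Their part was not tested.

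Erbb4, the neuregulin receptor of parvalbumin interneurons and other neurons, was bright at one probe and dim at the other. The bright probe read 10.67, 10.63, 10.59 and 10.51 in wildtype replicates 1 to 4, with an SD of 0.07 once dye effects were removed, and 10.64, 10.52, 11.17 and 10.84 in heterozygous replicates 1 to 4. The first 2 heterozygous replicates lay within the wildtype range and the last 2 above it. The difference was 0.19 (SE 0.14, fold interval 0.908 to 1.44, limma adjusted p = 0.694), and 0.08 without the library labelled heterozygous replicate 3. Interneuron markers averaged 0.29 relative to their dye mean in that library and 0.29, 0.41 and -0.04 in heterozygous replicates 1, 2 and 4, and their part was not tested. The dim Erbb4 probe was not well above background in any sample, at 6.63 to 7.06 in wildtype and 6.78 to 7.23 in heterozygous samples.

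**Figure D3:**
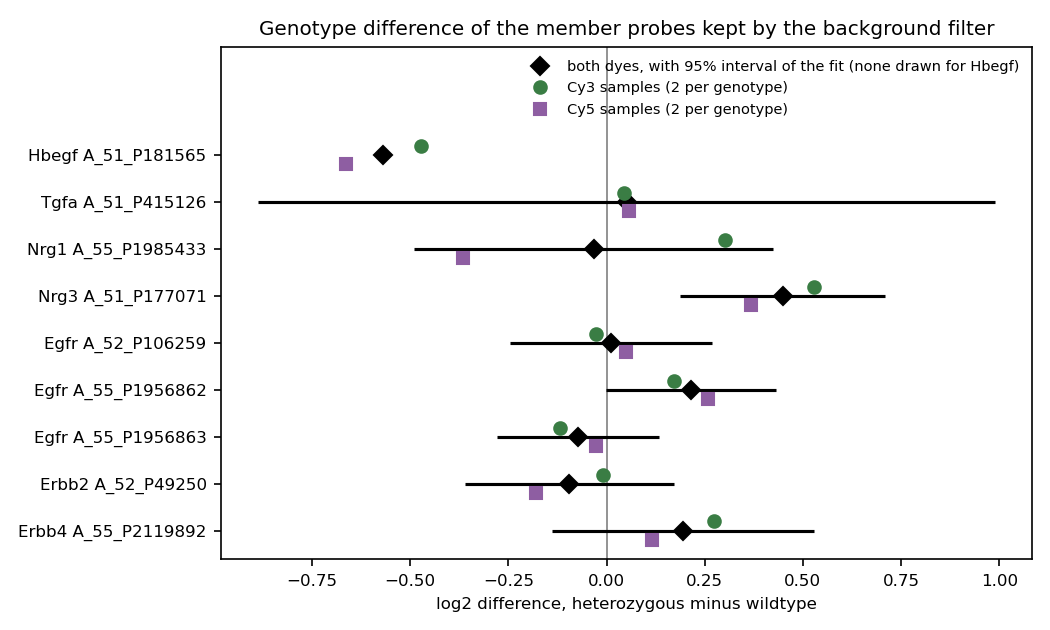
Log2 difference (heterozygous minus wildtype, horizontal axis) of the 9 member probes kept by the background filter, for both dyes together (diamonds, with 95% intervals for all but Hbegf) and within Cy3 (circles) and Cy5 (squares). The Nrg3 interval alone excludes 0 before adjustment, while Nrg1 lies at 0.30 in Cy3 and -0.37 in Cy5.

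Of the 8 kept probes other than Hbegf, none passed the adjusted threshold in limma and 1, Nrg3, had an unadjusted p under 0.05. Over all probes tested, such a p was found with a higher level in heterozygous samples for 4.06% and with a lower level for 4.82%. The difference was negative for 3 of the 8 probes, beside 53.7% of all probes. The groups did not overlap after removal of the dye effect for 2 of these probes, Nrg3 and Egfr A_55_P1956862, both higher in heterozygous samples, against a background of 3.39% of probes in that direction. For Hbegf, which was chosen for this contrast, the background in its direction was 5.23%. The median difference of the 8 probes was 0.03, beside -0.02 over all probes.

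Other genes of the pathway gave no call. Over 7 lists, 88 of 98 genes were tested. None passed the adjusted threshold in limma, as over all 19827 genes tested, of which 0% passed. An unadjusted p under 0.05 was reached by 3 lower and 3 higher genes, or 6.82%, beside 8.7% of all genes (4.8% lower and 3.9% higher). The median difference of the listed genes was 0.01, with 41 negative and 47 positive.

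Among the remaining ligands of the family, 3 of 5 were tested. The neuregulin Nrg2 differed by -0.15 (SE 0.10) and Nrg4 by -0.17 (SE 0.12), and the list's median was -0.15. For ligand release and receptor maturation, 7 of 9 genes were tested, 2 negative and 5 positive with a median of 0.11. Adam9, a metalloprotease that can release HB-EGF, averaged 11.40 in wildtype and 11.66 in heterozygous samples (difference 0.26, SE 0.11, limma adjusted p = 0.564). Rnf41, a ubiquitin ligase that acts on ERBB3, differed by 0.36 (SE 0.19).

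Feedback and turnover genes were divided, with 7 negative and 9 positive of 16 and a median of 0.04. Spred2, an inhibitor of the Ras to MAP kinase step, differed by -0.35 (SE 0.11, adjusted p = 0.503 in limma), and Cblb, a ubiquitin ligase, by 0.19 (SE 0.11). Of 19 adaptor and MAP kinase genes, 10 were negative and 9 positive, with a median of -0.02. Rasa1, a GTPase-activating protein for Ras, differed by -0.45 (SE 0.15) and Shc1, an adaptor that binds activated receptors, by 0.32 (SE 0.14).

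The PI3 kinase, phospholipase and STAT branches had 8 negative and 11 positive of 19 genes, with a median of 0.02. Stat5b, a transcription factor, differed by -0.28 (SE 0.09) and Pik3r2, a regulatory subunit of PI3 kinase, by 0.31 (SE 0.13). Immediate early genes that respond to ERK had 9 negative and 7 positive of 16 and a median of -0.04. Ier3 differed by 0.53 (SE 0.30) and Jun by 0.50 (SE 0.32), neither with an unadjusted p under 0.05. Among partners of HB-EGF at the cell surface and inside the cell, 3 were negative and 5 positive of 8 tested, with a median of 0.09. The syndecan Sdc2, a heparan sulfate carrier, differed by -0.98 (SE 0.51) and Sdc3 by 0.24 (SE 0.14).

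**Figure D4:**
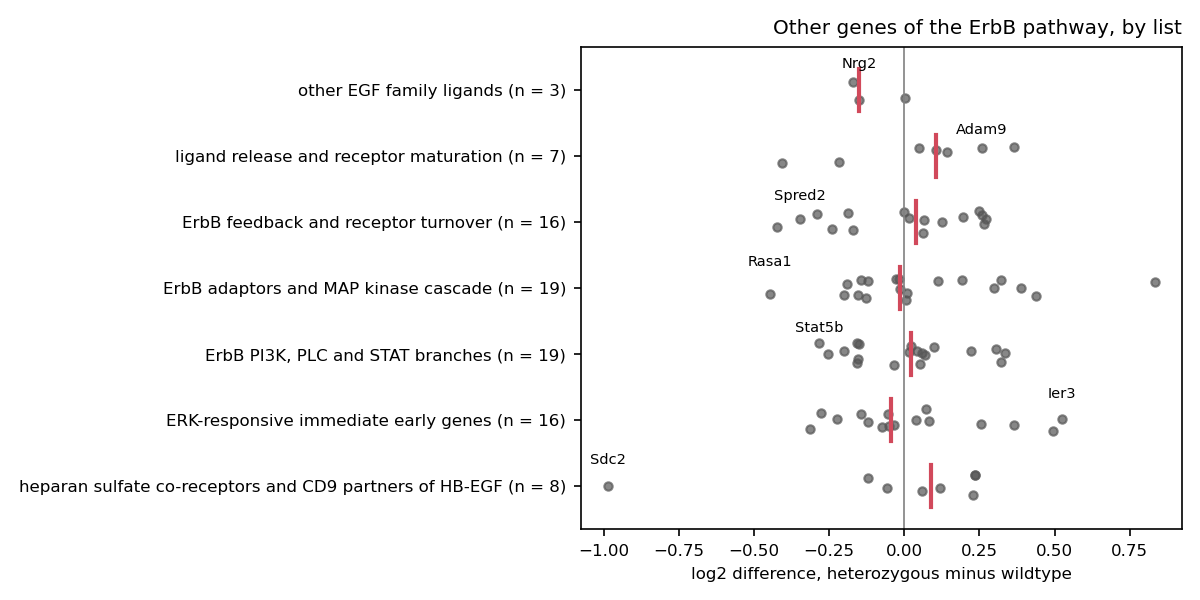
Log2 difference (heterozygous minus wildtype, horizontal axis) of each tested gene in 7 lists of the ErbB pathway, with a red bar at each list's median and the gene of smallest p named. List medians lie between -0.15 and 0.11, and no gene passed the adjusted threshold.

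The genes whose pattern over the 8 samples was most like that of Hbegf were sought among 10442 genes well above background in every sample, by Pearson correlation after removal of dye means. The highest values were 0.984 for Bcorl1, 0.980 for Emp2 and Pde1a, 0.979 for Dhx35 and 0.978 for 2600002B07Rik. The lowest were -0.990 for Naxe and -0.981 for Acat2. A correlation above 0.9 was found for 88 genes (0.843%) and one below -0.9 for 28 (0.268%). Hbegf separates the genotypes, so any gene that does so correlates with it, and the samples share arrays in pairs. Bcorl1, a transcriptional corepressor gene, stood at 0.16 to 0.23 in wildtype and -0.20 to -0.16 in heterozygous samples relative to its dye mean. Emp2, a membrane protein gene, differed by -0.41 and Naxe by 0.59. Both were picked by their likeness to Hbegf in these same samples, so their differences are described without a test. Of the other members, the kept probes with the strongest likeness to Hbegf in either direction were Nrg3 and Egfr A_55_P1956862, each at -0.87.

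**Figure D5:**
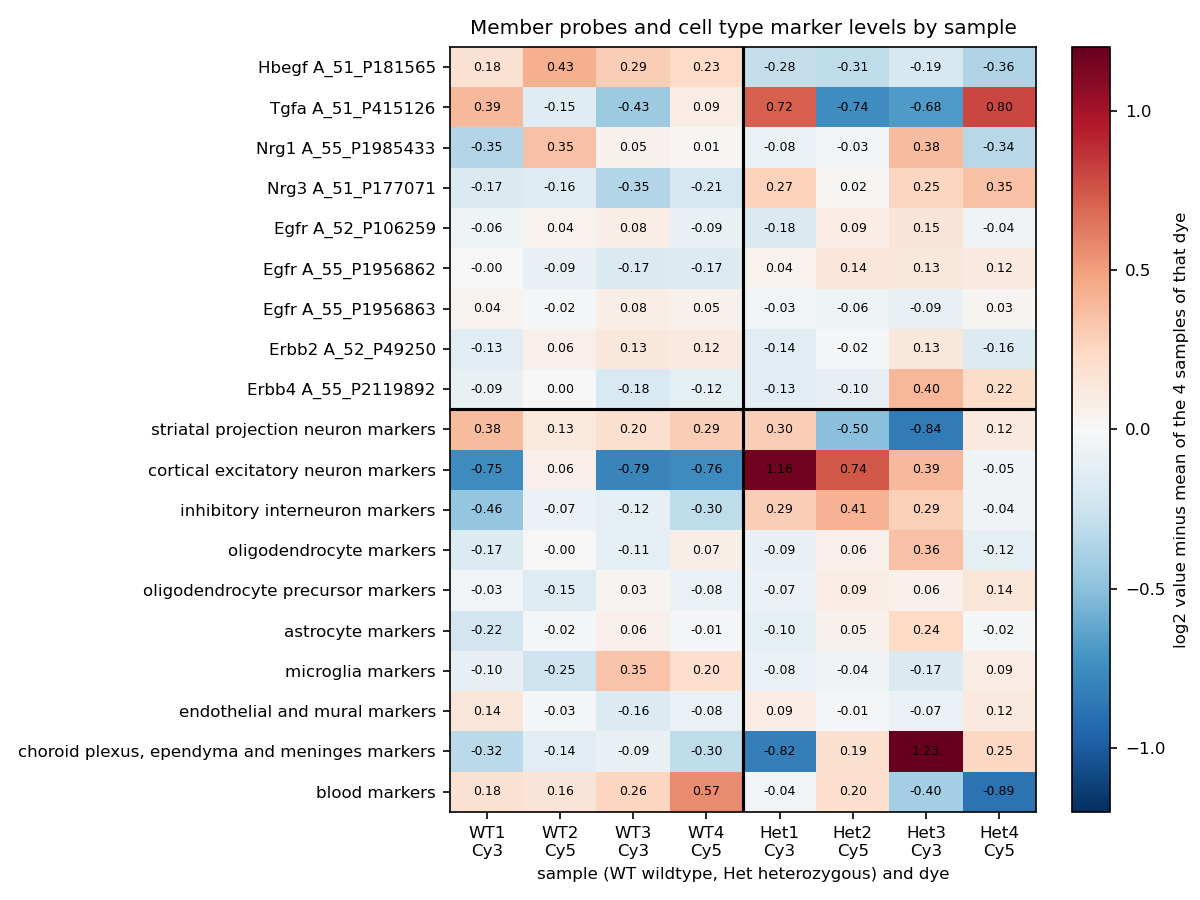
Log2 value minus the mean of the 4 samples of the same dye, for the kept member probes (upper block) and the mean over each cell type marker list (lower block), in each wildtype (WT) and heterozygous (Het) sample. Hbegf is negative in all 4 heterozygous samples (-0.36 to -0.19), and Tgfa is lowest in the 2 samples with the lowest projection neuron markers.

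Relative to its dye mean, Hbegf stood at 0.18, 0.43, 0.29 and 0.23 in wildtype replicates 1 to 4 and at -0.28, -0.31, -0.19 and -0.36 in heterozygous replicates 1 to 4. All 14 projection neuron markers had negative differences (median -0.44), with mean levels of 0.13 to 0.38 in wildtype samples and of 0.30, -0.50, -0.84 and 0.12 in heterozygous replicates 1 to 4. Blood cell markers, 4 of 5 tested and all 4 negative, ranged from 0.16 to 0.57 in wildtype and from -0.89 to 0.20 in heterozygous samples. Choroid plexus, ependymal and meningeal markers ranged from -0.32 to -0.09 in wildtype and from -0.82 to 1.23 in heterozygous samples. All 10 cortical excitatory neuron markers had positive differences (median 1.03). Their mean levels were -0.79 to 0.06 in wildtype and -0.05 to 1.16 in heterozygous samples. Interneuron markers, 4 of 9 negative, averaged -0.46 to -0.07 in wildtype and -0.04 to 0.41 in heterozygous samples. The part of projection neurons, cortical neurons, interneurons, blood and choroid cells in the Hbegf difference was not tested.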

How the data were processed

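Spot mean intensities and local background intensities came from the authors' scanner files, made with Agilent Feature Extraction 10.7.3.1 for array design 026655 (mm9), per the file headers. A value table that the authors also deposited holds a signal, the background-subtracted median intensity relative to its column median, as a comparison with the scanner files showed, and served as an alternative. Both files of an array were identical, so every sample's values were taken from the channel of its dye. Background was corrected by normexp with an offset of 50, followed by within-array loess and between-array Aquantile normalization (limma 3.58.1, R 4.3.3) and separation of the channels. Control and flagged spots were left out and replicate spots averaged. A probe was called well above background in a sample where this held for a share of at least 0.5 of its unflagged spots, and 25306 probes passed in at least 4 samples. Genes (19827) took their brightest probe and a name from the RefSeq table of GRCm38.p6 (27324 probes by accession, 3518 by symbol, 8587 kept the file's name).

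Genotype was tested by lmFit and eBayes with a dye term, treating the array as a random block (correlation -0.01 over probes), with Benjamini-Hochberg adjustment over all probes or genes and a threshold of 0.05. For alternatives the array correlation was estimated on every 10th feature. Each array held 1 genotype, so array and genotype effects are only partly separable. With so small a correlation the block changed little (SE of Nrg3 0.113, and 0.114 without the block). P-values and intervals thus treat the 8 samples nearly as independent, although they share 4 arrays. On simulated data with the spreads of these 19827 genes, 82% of 100 genes changed 2-fold and 100% of 100 genes changed 4-fold were recovered. In that run 8 unchanged genes were also called (4.21% of calls). These rates hold for data with that many changed genes, while 0 genes passed in the real data. Changes under 2-fold were not simulated, so the rates do not apply to the smaller member differences. P-values rest on the spread among these 8 samples, which may be partly technical.

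The members and gene lists were chosen with earlier results of these data known. The text names Brd2, all member probes, the 2 genes of smallest p in each list, and the 5 genes most like and 2 least like Hbegf. Btbd9 was named after its value was seen. The sequence and position of the dim Erbb4 probe are not reported here. Figures used matplotlib 3.10.9. Alternatives covered background correction, normalization, filter, probe choice, blocks, dye, variance model, flags and each sample left out.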

Additional observations from a re-analysis of the deposited data

How the results depend on the processing

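Hbegf kept its negative difference in 22 of 22 alternatives, from -0.66 to -0.47. It was chosen by that difference and the alternatives reuse these same samples, so the kept sign is no separate support for it. The bright Brd2 probe also stayed negative in 22 of 22 (-1.08 to -0.63). Nrg3 stayed positive in 21 of 21 (0.37 to 0.94, the highest with the scanner's processed signals), and no member other than Hbegf, which was not tested, passed the adjusted threshold in any alternative run. Erbb4 A_55_P2119892 and the Egfr probes A_55_P1956862 and A_55_P1956863 also kept their sign. The following differences changed sign. With the scanner's processed signals Tgfa was -0.19 and Nrg1 0.032. Quantile normalization gave -0.038 for Tgfa, 0.0088 for Erbb2 and 0.017 for Nrg1. In the Cy3 samples alone Egfr A_52_P106259 was -0.026 and Nrg1 0.30, and in the Cy5 samples alone the dim Brd2 probe was -0.038. Leaving out 1 sample at a time gave -0.35 to 0.37 for Tgfa, -0.047 to 0.082 for Egfr A_52_P106259 and -0.21 to 0.15 for Nrg1. The cause was not tested. The count of genes past the threshold was 0 in 23 of 25 settings, 1 (Timp2) with the mean of a gene's probes and 1 (the Btbd9 probe) with every probe tested alone. At an unadjusted p under 0.05 it was 1724. Both genes were named after their values were seen. Replicate numbers did not pair the samples: same-numbered samples correlated at 0.17, -0.30, -0.19 and -0.26, and 1 of 4 heterozygous samples correlated best with its own number. With the replicate block 0 genes passed, and Nrg3 differed by 0.45 (limma adjusted p = 0.483). Signals near background in Cy3 limit Nrg3, the Egfr probes A_55_P1956862 and A_55_P1956863 and, in part, Erbb2. Egf and Erbb3 missed the well-above-background call in every Cy3 sample and in some Cy5 samples. Btc and the dim Erbb4 probe missed it in all samples of both dyes.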
